A study of Mus musculus with 8 samples.

Results

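Lipoprotein lipase and 8 genes that are related to it or act on it were examined in mouse liver: the lipases *Lpl*, *Lipc* and *Lipg*, the lipase maturation factor *Lmf1*, the angiopoietin-like regulators *Angptl4* and *Angptl8*, and the apolipoproteins *Apoc2*, *Apoc3* and *Apoa5*. They were taken by gene symbol, and all 9 were found among the 27179 genes of the authors' table, each with reads. RNA was sequenced from whole liver of adult male C57BL/6NHsd mice after a 6 h fast, with 4 libraries from wild-type mice and 4 from mice homozygous for a change of valine to alanine in the nuclear receptor PPARɑ (V227A). The V227A line was made by base editing of zygotes and goes back to a founder with 1 edited allele, crossed again to the same strain. The study asks what this variant does to metabolism in the whole animal.

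The values used here are averages over all 8 libraries of both genotypes. Values per library and per genotype were not analysed here. The data below therefore describe how strongly each gene was expressed in this fasted liver. They give no difference between V227A and wild-type, no spread between mice and no test of either. The levels come from a mean effective library size of about 27473997 reads, and 18937 genes had reads in at least 1 library.

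Triglycerides travel in the blood inside very low density lipoproteins and chylomicrons. Lipoprotein lipase (LPL) splits them on the wall of capillaries, mainly in heart, muscle and adipose tissue, so that fatty acids can enter the cells. Apolipoprotein C-II on the particle activates the enzyme, apolipoprotein C-III and the angiopoietin-like proteins restrain it, and the liver makes most of these circulating regulators. Several of the genes, among them *Lpl*, *Angptl4* and *Apoc3*, are known to respond to PPARɑ, which fasting activates.

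The RNA had the profile of liver. *Alb*, which encodes albumin, was at 69579 CPM (reads scaled to a common library total), and all 8 hepatocyte markers of the list had reads. Genes of different length cannot be compared in CPM, because a longer transcript yields more fragments. Levels are therefore also given as CPM per kilobase (kb) of the gene's exons, merged over all its annotated transcripts. Every level per kilobase and every order below is on that scale unless another length is named, and orders can differ with other lengths. On the scale of merged exons the median of the 17956 genes with reads and a known exon length was 1.07 CPM per kb, and each of the 9 genes lay above it.

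The 9 genes fell into a wide range. Per kilobase of merged exons the apolipoproteins were highest, *Lipc*, *Angptl4* and *Angptl8* were intermediate, and *Lmf1*, *Lipg* and *Lpl* were lowest. With the coding transcript *Lmf1*, at 34.2 CPM per kb, lay above *Angptl8*, at 30.7. With merged exons *Apoc3* stood at 1645 CPM per kb and *Lpl* at 3.42 CPM per kb, a ratio of 482. The ratio was 161 when the coding part alone was taken as the length. The 3 apolipoproteins together made up 3544 of the 4091 CPM of the whole group. This is a share of reads and is not corrected for length.

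**Figure D1:**
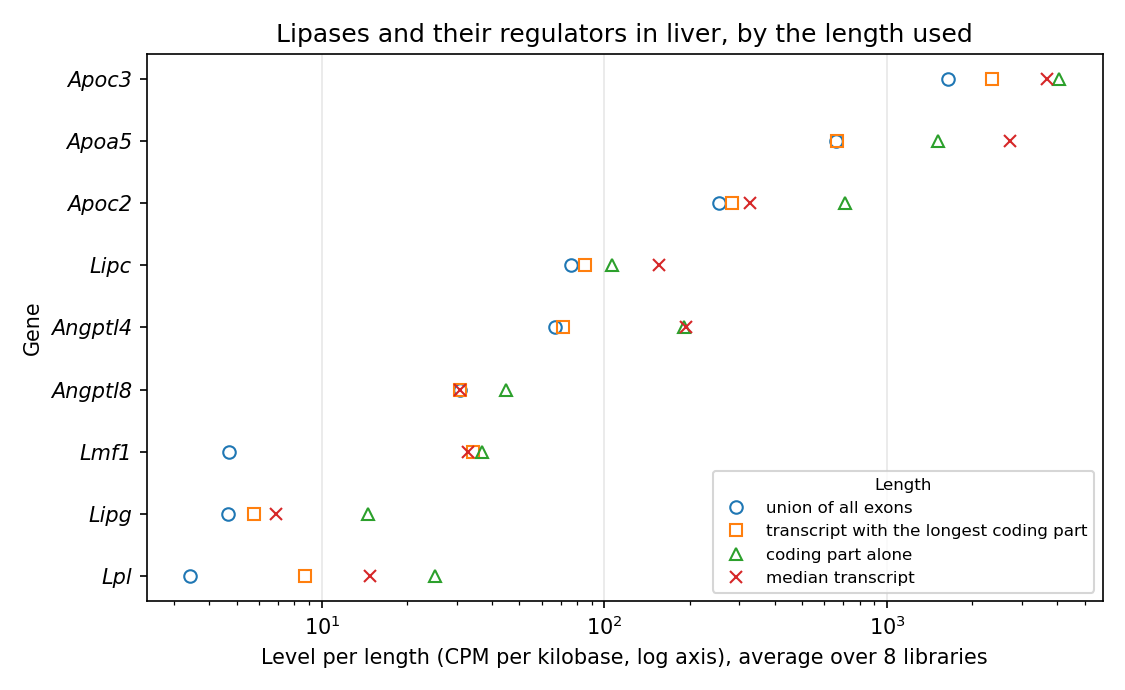
The horizontal axis is the level in CPM per kilobase on a log scale, averaged over the 8 libraries of both genotypes, and each row is a gene. Each symbol is the same CPM value divided by a different length; *Apoc3*, *Apoa5* and *Apoc2* are the upper 3 with every length, and *Lpl* lies left of *Lipg* only with the union of all exons (3.42 against 4.64).

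*Lpl*, the enzyme itself, was expressed at a modest level. It had an average log2 CPM of 5.16, or 35.8 CPM, which corresponds to an estimated 984 reads per library and 7869 reads over all libraries. The 95% counting interval (exact Poisson) of its level ran from 35.0 to 36.6 CPM. Such intervals cover counting error only, not the spread between mice. Of all genes with reads and a length, 67.7% lay below *Lpl* per kilobase. The gene is on chromosome 8 of GRCm38, from 68880491 to 68907448 on the plus strand.

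The scale matters for *Lpl* more than for most of these genes. GENCODE vM21 lists 5 transcripts for it, and their merged exons span 10478 bases, while the coding transcript has 4115 bases and its coding part 1422. Per kilobase of the coding transcript *Lpl* was at 8.70 CPM, and per kilobase of the coding part at 25.2 CPM.

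*Lipc* encodes hepatic lipase, which liver cells secrete and which acts on remnant particles and high density lipoprotein. It was the most highly expressed of the 3 lipases, at 163 CPM and an estimated 4486 reads per library. Per kilobase of merged exons it reached 75.9 CPM, above 96.8% of genes. This was 22.2 times the level of *Lpl* on the same scale, 9.77 times per kilobase of the coding transcript and 4.24 times per kilobase of the coding part. *Lipc* therefore exceeded *Lpl* with each length, while the size of the gap depended on it. The gene lies on chromosome 9, from 70798128 to 70952226 on the minus strand.

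*Lipg*, on chromosome 18 from 74939322 to 74961263, encodes endothelial lipase, which mainly cleaves phospholipids of high density lipoprotein. Its level was 21.9 CPM, an estimated 601 reads per library. Per kilobase of merged exons it was at 4.64 CPM, slightly above *Lpl*. The order turned with the other lengths: the *Lpl* to *Lipg* ratio was 0.736 with merged exons, 1.51 with the coding transcript and 1.73 with the coding part. *Lpl* and *Lipg* were nevertheless the lowest of the 9 genes with each of the 4 lengths tried.

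The other genes of the lipase family were mostly silent. *Pnlip*, *Pnliprp2* and *Lipi* had no reads, for which the 95% counting interval reaches up to 0.0168 CPM. *Pnliprp1*, which like *Pnlip* is a gene of the pancreas, had an estimated 1 read over all libraries, or 0.00454 CPM. *Liph* was at 0.0550 CPM. *Pla1a*, a phospholipase specific for phosphatidylserine, was the exception at 42.2 CPM and 20.98 CPM per kb, which is 6.14 times *Lpl* per kilobase of merged exons and 1.22 times per kilobase of the coding part. Of the family, *Lipc* was thus the highest and was 3.62 times *Pla1a* with merged exons.

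Lipases that act inside cells were measured as a reference for the secreted ones. Of the 9 genes on that list, 8 had reads, and the median over all 9 was 71.6 CPM per kb. *Ces3a* and *Ces1d*, carboxylesterases of the hepatocyte endoplasmic reticulum, were at 822 and 265 CPM per kb. *Pnpla2*, which encodes adipose triglyceride lipase, was at 71.9 CPM per kb of merged exons, close to *Lipc*. *Lipe*, the hormone-sensitive lipase, was at 5.10 CPM per kb of merged exons, somewhat above *Lipg* and *Lpl*, but at 9.34 CPM per kb of the coding part, below both. *Pnpla3* was low, at 0.608 CPM per kb, and *Cel*, a lipase of the pancreas, had no reads.

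*Lmf1* encodes a protein of the endoplasmic reticulum that LPL, hepatic lipase and endothelial lipase need in order to fold and leave the cell. It was at 63.7 CPM, an estimated 1749 reads per library. The merged exons of its 10 annotated transcripts reach 13589 bases, against 1861 for the coding transcript. The level per kilobase was therefore 4.68 CPM with merged exons and 34.2 CPM with the coding transcript. With merged exons its counting interval, 4.61 to 4.76 CPM per kb, overlapped that of *Lipg*, 4.51 to 4.77, so this pair of neighbours in the order was not separated even by counting error. With the coding transcript *Lmf1* was 3.93 times *Lpl*. The gene is on chromosome 17, from 25579085 to 25662826.

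All 14 genes that handle LPL in and around the cell had reads. Calreticulin (*Calr*), a chaperone of the endoplasmic reticulum, led the list at 353 CPM per kb. *Sel1l*, which helps LPL leave the endoplasmic reticulum together with *Lmf1*, was at 11.3 CPM per kb. *Furin* and *Pcsk6*, proprotein convertases that can cleave LPL and the angiopoietin-like proteins, were at 29.5 and 19.4 CPM per kb, and *Pcsk5* was at 0.635, the lowest with merged exons. The syndecans *Sdc1* and *Sdc4*, heparan sulphate proteoglycans of the cell surface, were at 41.0 and 187 CPM per kb. *Gpihbp1*, which carries LPL across capillary endothelium and anchors it there, was at 12.2 CPM and 4.77 CPM per kb.

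*Angptl4* was the higher of the 2 angiopoietin-like regulators. The protein unfolds LPL and is induced in many tissues by fasting. Its level was 236 CPM, an estimated 6485 reads per library, and 66.7 CPM per kb of merged exons, above 96.4% of genes. *Lipc* was just above it on this scale, with counting intervals of 75.2 to 76.7 and 66.1 to 67.2 CPM per kb. The order of the pair turned per kilobase of the coding part, where *Angptl4* was at 192 and *Lipc* at 107 CPM. *Angptl4* is on chromosome 17, from 33773750 to 33781830 on the minus strand, and its level per kilobase of merged exons was 19.5 times that of *Lpl*.

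*Angptl8* encodes a small protein that feeding and insulin induce. It was at 26.6 CPM in these fasted livers, an estimated 730 reads per library. Its single annotated transcript has 865 bases, so its level per kilobase was 30.7 CPM, above 93.2% of genes. *Angptl4* was 2.17 times *Angptl8* on this scale. *Angptl8* (chromosome 9, 21835510 to 21837347, plus strand) lies within *Dock6* on the opposite strand and shares 0 exon bases with it. *Dock6* was at 1.88 CPM per kb, so its level was 0.0612 times that of *Angptl8*. The strand setting of the counting is not given in the sources used here.

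Among related genes of the family, *Angptl6* was at 7.35 and *Angptl2* at 1.43 CPM per kb. *Angptl7* and *Angptl1* were at 0.210 and 0.0543 CPM, an estimated 46.2 and 11.9 reads over all libraries.

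*Apoc3* encodes apolipoprotein C-III, which slows both lipolysis and the uptake of remnants. At 1668 CPM, or an estimated 45834 reads per library, it was above 99.8% of genes per kilobase. *Apoa5* encodes apolipoprotein A-V, which favours the action of LPL. It had almost the same CPM, 1669, but longer merged exons (2522 against 1014 bases), and was at 662 CPM per kb, so that *Apoc3* was 2.49 times *Apoa5* by this measure. *Apoc2*, the activator of LPL, was the lowest of the 3 apolipoproteins, at 206 CPM and 253 CPM per kb. *Apoc3* was 6.49 times *Apoc2* with merged exons, 8.30 times with the coding transcript, 5.73 times with the coding part and 11.3 times with the median transcript. The order *Apoc3*, *Apoa5*, *Apoc2* held with each of the 4 lengths.

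*Apoc3* (chromosome 9, 46232933 to 46235636, minus strand) and *Apoa5* (46268633 to 46271919, plus strand) belong to a gene cluster with *Apoa1* and *Apoa4*. Levels in that cluster were far apart. *Apoa1*, the main protein of high density lipoprotein, was at 10760 CPM per kb, which was 6.54 times *Apoc3* and 16.3 times *Apoa5*. *Apoa4*, between them, was at 68.6 CPM per kb. *Zpr1*, a zinc finger protein gene that starts 1145 bases beyond the end of *Apoa5*, was at 38.1 CPM per kb. A non-coding antisense gene, *Gm47544*, shares 524 exon bases with *Apoa5* and was not found among the genes of the authors' table. The strand setting of the counting is not known here, so the level of *Apoa5* is uncertain to that extent.

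*Apoc2* (chromosome 7, 19671579 to 19677941, minus strand) lies in the second cluster, with *Apoc4*, *Apoc1* and *Apoe* on the same strand. It was the lowest of them with each of the 4 lengths. *Apoe*, the ligand of remnant receptors, was 42.1 times *Apoc2* with merged exons and *Apoc1* was 38.1 times. *Apoc4* was 1.18 times with merged exons and 4.97 times with the coding transcript. *Apoc4* ends 142 bases from the start of *Apoc2*, and an annotated gene that spans both, *Gm44805*, shares 646 of the 813 merged exon bases of *Apoc2*. *Gm44805* was not found among the genes of the authors' table. How reads that match both *Apoc2* and *Gm44805* were counted is not known here, so the level of *Apoc2* is uncertain.

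All 9 other apolipoproteins of the list had reads, and their median was 1515 CPM per kb, close to *Apoc3* and above *Apoa5* and *Apoc2* with merged exons. *Apob*, the structural protein of very low density lipoprotein, was at 2895 CPM and 208 CPM per kb. *Apoa2* was the highest with merged exons, at 14927 CPM per kb, while *Apoe* was higher with the coding transcript.

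Of the receptors that take up the particles or the fatty acids released, all 6 had reads. *Lsr*, the lipolysis-stimulated lipoprotein receptor, was at 65.2 CPM per kb and *Lrp1* at 38.5. *Vldlr*, which partners with LPL in heart, muscle and adipose tissue, was the lowest at 0.117 CPM per kb, below *Lpl*. *Cd36*, a fatty acid transporter, was at 5.82 CPM per kb. The transcription factors that govern these genes in hepatocytes were all present. *Ppara* was at 332 CPM and 86.5 CPM per kb. *Hnf4a*, a regulator of hepatocyte apolipoprotein genes, was at 168 CPM per kb. *Creb3l3*, a fasting-induced factor that drives *Apoa4*, *Apoa5* and *Apoc2*, was at 162 CPM per kb and exceeded *Hnf4a* with the coding transcript. *Foxo1* was at 10.4 CPM per kb.

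Markers of other cells are given beside *Lpl* because whole liver holds several cell types and because *Lpl* is abundant in adipose tissue and muscle. In such a bulk sample, fewer cells of a type and less RNA per cell cannot be told apart. The part of any of these cells in the *Lpl* level was not tested. Sums of CPM over a marker list count reads and are not corrected for length. All 7 adipocyte markers had reads, with 9.81 CPM in sum, of which *Fabp4*, which macrophages and endothelial cells also express, made up 9.28. Per kilobase of merged exons *Fabp4* was at 2.07 CPM, against 3.42 for *Lpl*. The other adipocyte markers ran from 0.0028 (*Lep*) to 0.181 (*Adipoq*) on that scale. With the coding transcript *Fabp4*, at 10.4 CPM per kb, lay above *Lpl*, at 8.70. Of the 7 markers of heart and skeletal muscle, *Myh6* and *Myl2* had no reads, and the list summed to 2.41 CPM, of which *Tnnt2* made up 1.16 and *Acta1* 0.685.

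Cells that reside in the liver were detected. The 8 markers of Kupffer cells and macrophages summed to 196 CPM, and *Clec4f*, which is specific to Kupffer cells, was at 33.2 CPM per kb, 9.70 times *Lpl* with merged exons and 1.98 times with the coding part. The 7 endothelial markers summed to 139 CPM, of which *Stab2* made up 44.2 and *Clec4g* 37.8. The 6 stellate cell markers summed to 153 CPM, of which *Dcn* made up 99.6. *Lpl* and *Lipg* therefore lay within the range of the markers of Kupffer, endothelial and stellate cells, between the lowest and the highest of each list. *Lipc* lay above every marker of those 3 lists and, with merged exons, above *Hal*, the lowest of the 8 hepatocyte markers at 49.6 CPM per kb. With the coding part *Lipc* was at 107 CPM per kb and *Hal* at 139.5, and with the median transcript at 155 and 171, so that *Lipc* lay below every hepatocyte marker with these lengths. B and T cell markers summed to 1.03 CPM. Of the 7 markers of exocrine pancreas, 3 had no reads, and *Cela1*, at 29.9 CPM, made up most of their sum of 31.6 CPM.

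**Figure D2:**
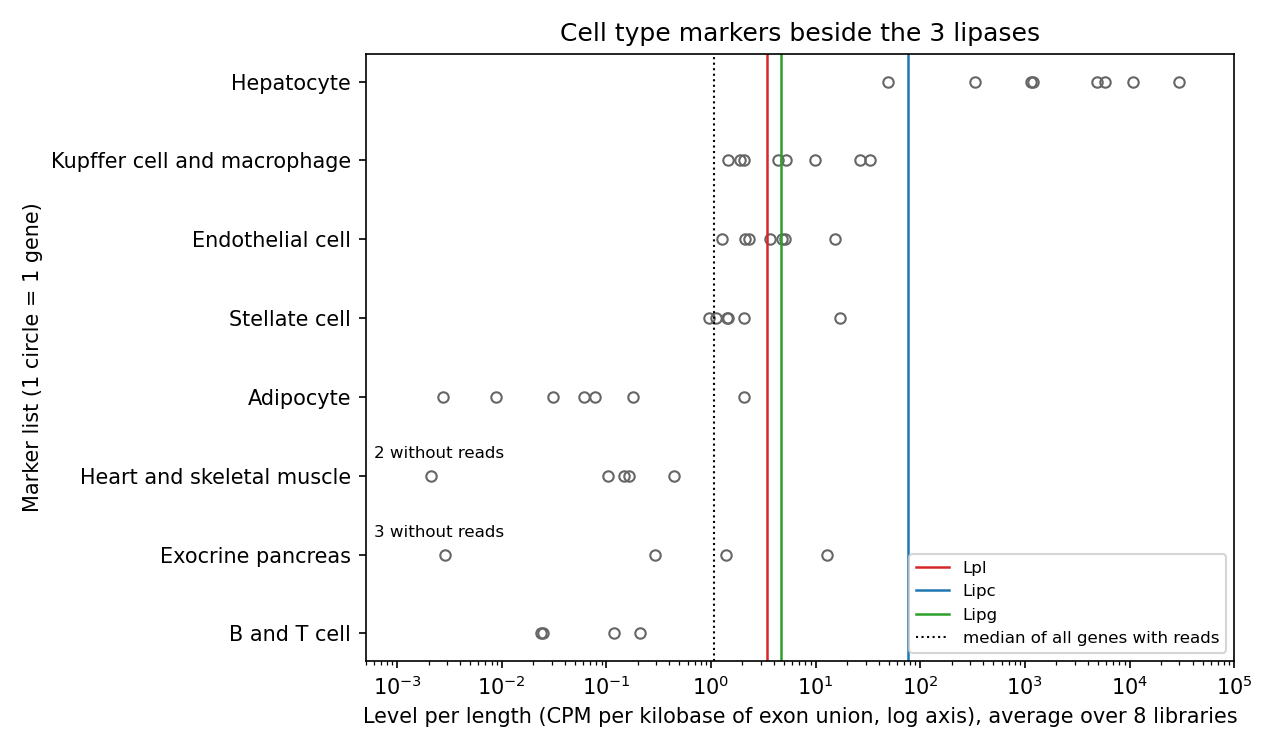
The horizontal axis is the level in CPM per kilobase of merged exons on a log scale, averaged over the 8 libraries of both genotypes; each circle is a marker gene and each row a cell type, with genes without reads given as a number. The vertical lines mark *Lpl* (3.42), *Lipg* (4.64), *Lipc* (75.9) and the median of all genes with reads (1.07); *Lipc* lies among the hepatocyte markers, and *Lpl* and *Lipg* lie above every adipocyte and muscle marker on this scale.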

How the data were processed

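RNA of 4 wild-type and 4 V227A livers was sequenced as stranded poly-A, paired-end libraries. By the authors' notes, trimming was done with Trimmomatic, quality control with FastQC, alignment to GRCm38 with STAR, counting per gene with featureCounts and the comparison with edgeR. Versions, annotation and strand setting are not given in the sources used here. The deposited table holds 1 average log2 CPM for each gene over all 8 libraries and 0 columns per library. Its other value columns are the authors' own comparison of the genotypes (log2 fold change, F statistic, p-value and FDR); none was used, so the planned test between genotypes was not run.

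The lowest value, -3.78, is that of 8242 genes without reads. With edgeR's default prior count of 2, which the authors are taken to have used, it gives the mean effective library size, and from it each gene's reads and CPM. Of 2378 genes with 1 to 5 estimated reads in total, 99.9% lay within 0.1 of a whole number. The script that does this was tested on simulated data. Lengths came from GENCODE vM21 (GRCm38) and were known for 94.8% of genes with reads. Counting intervals are exact Poisson at 95%. Python 3.11.15, pandas 2.3.3, numpy 2.4.6, scipy 1.17.1 and matplotlib 3.10.9 were used.

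The 9 genes and the 15 lists of related genes and cell markers were chosen with earlier results of these data known. All members of the lists were eligible to be named, and none was named for a change; 1 gene of the lists is not reported. Alternatives were the prior count, the length and the genes used as background.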

Additional observations from a re-analysis of the deposited data

How the results depend on the processing

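No paired analysis was possible because values per library were not analysed here; for the same reason the planned count tests, the block by replicate number and the runs with a replicate left out were not done. Added after seeing the data were the coding transcript as length, and the annotated coding part and protein-coding genes in place of a protein table.

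The CPM of all 9 genes was unchanged with a prior of 1 or 4. The method fixes this outcome, because the derived library size scales with the prior as the reads do, so it tests nothing. With the prior left in, the CPM stayed within the 95% counting interval of each gene, which is what counts as the same here. *Lpl* was at 35.9 against 35.8 and *Lipg* at 21.96 against 21.88. Estimated reads scale with the prior: for *Lpl* they moved from 984 per library to 492 with a prior of 1 and 1967 with a prior of 4.

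Ranks by level per kilobase, with merged exons first, moved as follows. *Lpl* moved from 9 to 8 with the median transcript, the coding part and the coding transcript, and *Lipg* from 8 to 9 with each of them. *Lipc* moved from 4 to 5 with the median transcript and the coding part, and *Angptl4* from 5 to 4 with the same lengths. *Lmf1* moved from 7 to 6 and *Angptl8* from 6 to 7 with the median transcript and the coding transcript. *Apoc3*, *Apoa5* and *Apoc2* kept ranks 1, 2 and 3.

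The percent of genes below moved, from all genes with reads to those with at least 10 reads per library and to protein-coding genes: *Lpl* 67.7 to 54.6 and 65.1, *Lipg* 72.5 to 61.3 and 70.2, *Lmf1* 72.7 to 61.5 and 70.4, *Lipc* 96.8 to 95.5 and 96.5, *Angptl4* 96.4 to 95 and 96.1, and *Angptl8* 93.2 to 90.4 and 92.6. With at least 10 reads it moved for *Apoc2* from 98.9 to 98.4, for *Apoc3* from 99.8 to 99.7 and for *Apoa5* from 99.5 to 99.4.

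The levels are means over mice of both genotypes, so no spread between mice is known. The library size and the reads rest on an assumed prior. The lengths rest on an annotation that need not be that of the counts. The order of *Lpl* and *Lipg*, of *Lipc* and *Angptl4*, of *Lmf1* and *Angptl8*, and of *Lipe* and the low lipases depends on the lengths. So does the place of *Lipc* beside the hepatocyte markers, and that of *Lpl* and *Lipg* beside *Fabp4*.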
